A study of Mus musculus with 9 samples.

Results

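The 10 genes described here encode the VEGF and angiopoietin signalling system of blood and lymph vessels: the ligands Vegfa, Vegfc, Pgf, Angpt1 and Angpt2 and the receptors Flt1, Kdr, Flt4, Tek and Tie1. They were taken by gene symbol from a table of 25526 genes, and all 10 were found and all 10 entered the test. The rule used no measured values, but the genes were chosen with earlier results of these data known. The table holds transcript abundance in whole mouse lung as FPKM, that is, fragment numbers divided by transcript length and by library total. Of 9 lung libraries, 3 came from mice given PepNzymeSOD-CAT, named by the series as an inhalable nanozyme (nanozyme), 3 from mice with pulmonary fibrosis (model) and 3 from normal mice (normal), with 1 mouse behind each library. The labels give no strain, sex, age, fibrosis inducer, dose or time of collection, and they do not state in words that the nanozyme mice also had fibrosis induced.

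In this system, secreted ligands from 1 cell type act on tyrosine kinase receptors of another. VEGF-A binds VEGFR1 (Flt1) and VEGFR2 (Kdr), and VEGFR2 carries most of the signal for endothelial growth and permeability. VEGF-C acts mainly on VEGFR3 (Flt4), the receptor of lymphatic vessels, while placental growth factor (Pgf) binds VEGFR1 but not VEGFR2. Angiopoietin 1 activates the receptor TIE2 (Tek) and keeps vessels stable, angiopoietin 2 can oppose it at the same receptor, and TIE1 is a related receptor with no firmly established ligand of its own that modulates TIE2. In the lung, alveolar type 1 cells are a main source of VEGF-A, mural cells and fibroblasts make angiopoietin 1, and the receptors are mostly endothelial.

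The FPKM columns summed to between 443746 and 519772, and between 13519 and 14152 genes per library had at least 1 FPKM. The files give no read counts, so sequencing depth is unknown. The lung markers Sftpc, Scgb1a1, Ager, Cldn18 and Pecam1 were present in all 9 libraries. Replicate 2 of the nanozyme group stood apart from its group: its mean correlation across genes was 0.971 with the model libraries and 0.921 with the other nanozyme libraries. Along the main axis of variation between libraries (principal component analysis, 62.8% of the variance), the nanozyme libraries lay at -14.4, 43.3 and -9.7, the model libraries at 39.5, 61.2 and 58.8, and the normal libraries at -63.5, -54.8 and -60.2. For the members' comparisons that involve the nanozyme group, values without its replicate 2 are given as well.

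RefSeq promoter sequences (GRCm38.p6) were at hand for 8 of the 10 genes. The 250 bases before the annotated start are shown for Kdr, Flt1, Tek and Tie1, the receptors known chiefly from blood vessels, and for Pgf, the member that rose in model lungs. Each is written 5′ to 3′ on the strand of the gene, and capitals mark GGAA or its reverse complement TTCC, the core letters bound by ETS transcription factors, a family used widely in endothelial genes. The Kdr stretch is chr5:75978456-75978705 (minus strand), the Flt1 stretch chr5:147726012-147726261 (minus), the Tek stretch chr4:94739039-94739288 (plus), the Tie1 stretch chr4:118489850-118490099 (minus) and the Pgf stretch chr12:85177314-85177563 (minus).
Kdr: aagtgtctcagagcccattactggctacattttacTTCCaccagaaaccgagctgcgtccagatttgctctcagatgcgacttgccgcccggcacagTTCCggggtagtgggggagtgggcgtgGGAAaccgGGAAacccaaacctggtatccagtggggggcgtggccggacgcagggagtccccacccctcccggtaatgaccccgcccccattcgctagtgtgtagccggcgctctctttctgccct
Flt1: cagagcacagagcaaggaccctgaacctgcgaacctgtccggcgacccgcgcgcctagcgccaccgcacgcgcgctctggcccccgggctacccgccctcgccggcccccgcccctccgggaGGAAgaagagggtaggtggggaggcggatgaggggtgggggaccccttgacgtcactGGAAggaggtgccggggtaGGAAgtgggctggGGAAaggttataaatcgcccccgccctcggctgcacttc
Tek: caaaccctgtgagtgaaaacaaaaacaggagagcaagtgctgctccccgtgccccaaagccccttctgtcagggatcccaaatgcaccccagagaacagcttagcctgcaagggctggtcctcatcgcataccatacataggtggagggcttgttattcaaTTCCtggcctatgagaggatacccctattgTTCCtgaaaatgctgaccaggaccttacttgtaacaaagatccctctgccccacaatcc
Tie1: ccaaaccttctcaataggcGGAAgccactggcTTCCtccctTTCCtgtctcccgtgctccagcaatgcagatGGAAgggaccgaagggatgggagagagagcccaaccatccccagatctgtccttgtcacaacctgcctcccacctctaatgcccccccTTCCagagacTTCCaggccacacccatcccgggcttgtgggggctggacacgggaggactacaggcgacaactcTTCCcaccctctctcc
Pgf: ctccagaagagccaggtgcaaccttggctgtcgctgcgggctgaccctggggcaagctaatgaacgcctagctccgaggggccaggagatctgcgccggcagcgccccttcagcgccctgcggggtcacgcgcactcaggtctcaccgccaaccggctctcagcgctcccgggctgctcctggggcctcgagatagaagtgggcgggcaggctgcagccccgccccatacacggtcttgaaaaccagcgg

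These letters occurred 4 times in the Kdr stretch, 4 times in Flt1, 2 times in Tek and 7 times in Tie1, against 0 times in Pgf. The stretch of Flt4, the lymphatic receptor, held 2 copies and is not printed. Of the ligands not printed, Vegfa held 6 copies at chr17:46032378-46032627 and 2 at chr17:46025164-46025413, and Vegfc held 1. The number of copies therefore did not divide the receptors from the ligands. Of 32851 promoter stretches of the same length in the RefSeq table, 93.4% held at least 1 copy and the median was 3 copies, so the presence of copies in the receptor genes is what most promoters show. A second Pgf start, 250 bases at chr12:85175983-85176232, also held 0 copies. The core letters of the hypoxia response element were searched on both strands as ACGTG and as GCGTG, which are found in 16.6% and 28.2% of promoters. ACGTG occurred in none of the 5 stretches shown. GCGTG occurred 2 times in Kdr, 1 time in Flt1 and 1 time in Pgf, and not in Tek or Tie1. Among the stretches not printed, that of Vegfa at chr17:46025164-46025413 held 1 copy of ACGTG and 1 of GCGTG. The Vegfa stretch at chr17:46032378-46032627 held 0 copies of either. These matches describe the letters only.

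Vegfa was the most abundant of the 10 genes in every group. Its levels were 179, 151 and 238 FPKM in nanozyme lungs, 175, 77.2 and 158 FPKM in model lungs, and 204, 248 and 230 FPKM in normal lungs. Every model library lay below every normal library, and replicate 2 of the model group was the lowest of all 9. Vegfa averaged 137 ± 52.2 FPKM in model lungs and 227 ± 22.1 FPKM in normal lungs (SD, n = 3 each), a log2 change of -0.81 ± 0.30 (SE) on the log2(FPKM + 1) scale that missed the threshold (adjusted p = 0.0616, limma with Benjamini-Hochberg adjustment over 14540 genes). With replicate 2 of the model group left out, the change was -0.45 (adjusted p = 0.112). The gene spans chr17:46016993-46032369 on the minus strand of GRCm38 and has 13 annotated transcripts, 8 of them protein coding, which a value per gene cannot separate.

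Pgf was the ligand that rose in model lungs. Its levels were 3.69, 8.36 and 3.32 FPKM in nanozyme lungs, 8.39, 6.39 and 9.27 FPKM in model lungs, and 2.04, 2.54 and 2.23 FPKM in normal lungs. All 3 model libraries stood above all 3 normal ones, replicate 2 of the nanozyme group lay among the model libraries, and the other nanozyme libraries lay between the groups. In model lungs Pgf averaged 8.02 ± 1.48 FPKM, against 2.27 ± 0.253 FPKM in normal lungs, 3.54 times higher (log2 change 1.45 ± 0.28, adjusted p = 0.00513 by limma). This call held in all 20 settings run, with log2 changes between 1.35 and 1.77. Pgf (chr12:85166635-85177790, minus strand) was the least abundant of the 10 genes in normal lungs and the 6th in model lungs.

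Angpt1 fell in model lungs. It had 16.7, 6.29 and 16.8 FPKM in nanozyme lungs, 8.20, 4.96 and 6.37 FPKM in model lungs, and 17.7, 21.1 and 19.9 FPKM in normal lungs. The model and normal ranges were far apart, and the nanozyme group was split, with replicate 2 inside the model range and the other libraries just below the normal one. Model lungs averaged 6.51 ± 1.63 FPKM and normal lungs 19.6 ± 1.72 FPKM, 0.333 times the normal level (log2 change -1.47 ± 0.33, adjusted p = 0.00962 by limma). The change was called in all 20 settings, between -1.63 and -1.32, and was -1.32 (adjusted p = 0.034) without replicate 2 of the model group. Angpt1 lies at chr15:42424723-42676977 on the minus strand and overlaps the antisense gene Gm17473 on the other strand. How the counting treated strand is not given in the sources used here, so reads from that gene cannot be told apart from those of Angpt1.

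Angpt2, the other TIE2 ligand, did not follow Angpt1. It had 5.19, 4.29 and 5.91 FPKM in nanozyme lungs, 3.60, 5.64 and 4.73 FPKM in model lungs, and 5.16, 7.16 and 5.92 FPKM in normal lungs. All 3 groups overlapped, and the model replicate that was lowest for most other genes was the highest model library here. The log2 change in model against normal lungs was -0.33 ± 0.18 (adjusted p = 0.164, limma). The log2 ratio of Angpt2 to Angpt1 within each library was -1.51, -0.46 and -1.36 in nanozyme lungs, -1.0, 0.16 and -0.36 in model lungs, and -1.60, -1.44 and -1.60 in normal lungs. The ratio was higher in every model library than in any normal library, by 1.14 on average (exact two-sided permutation p = 0.1, the smallest that 3 against 3 can give). Between nanozyme and model lungs it differed by -0.71 with overlapping values (exact permutation p = 0.2), by -1.04 without replicate 2 of the nanozyme group and by -0.43 without replicate 2 of the model group. Angpt2 (chr8:18690263-18741562, minus strand) overlaps Mcph1 on the other strand, a gene at 1.04 to 1.77 FPKM in these lungs.

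Vegfc had low levels with a wide spread in the nanozyme and model groups. Values were 5.96, 3.39 and 4.74 FPKM in nanozyme lungs, 4.69, 2.71 and 4.61 FPKM in model lungs, and 5.48, 5.63 and 5.66 FPKM in normal lungs. The model libraries all lay below the normal ones, yet the log2 change of -0.42 ± 0.21 missed the threshold (adjusted p = 0.139, limma) and was -0.22 (adjusted p = 0.376) without replicate 2 of the model group. Vegfc lies at chr8:54077606-54187096 on the plus strand.

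**Figure D1:**
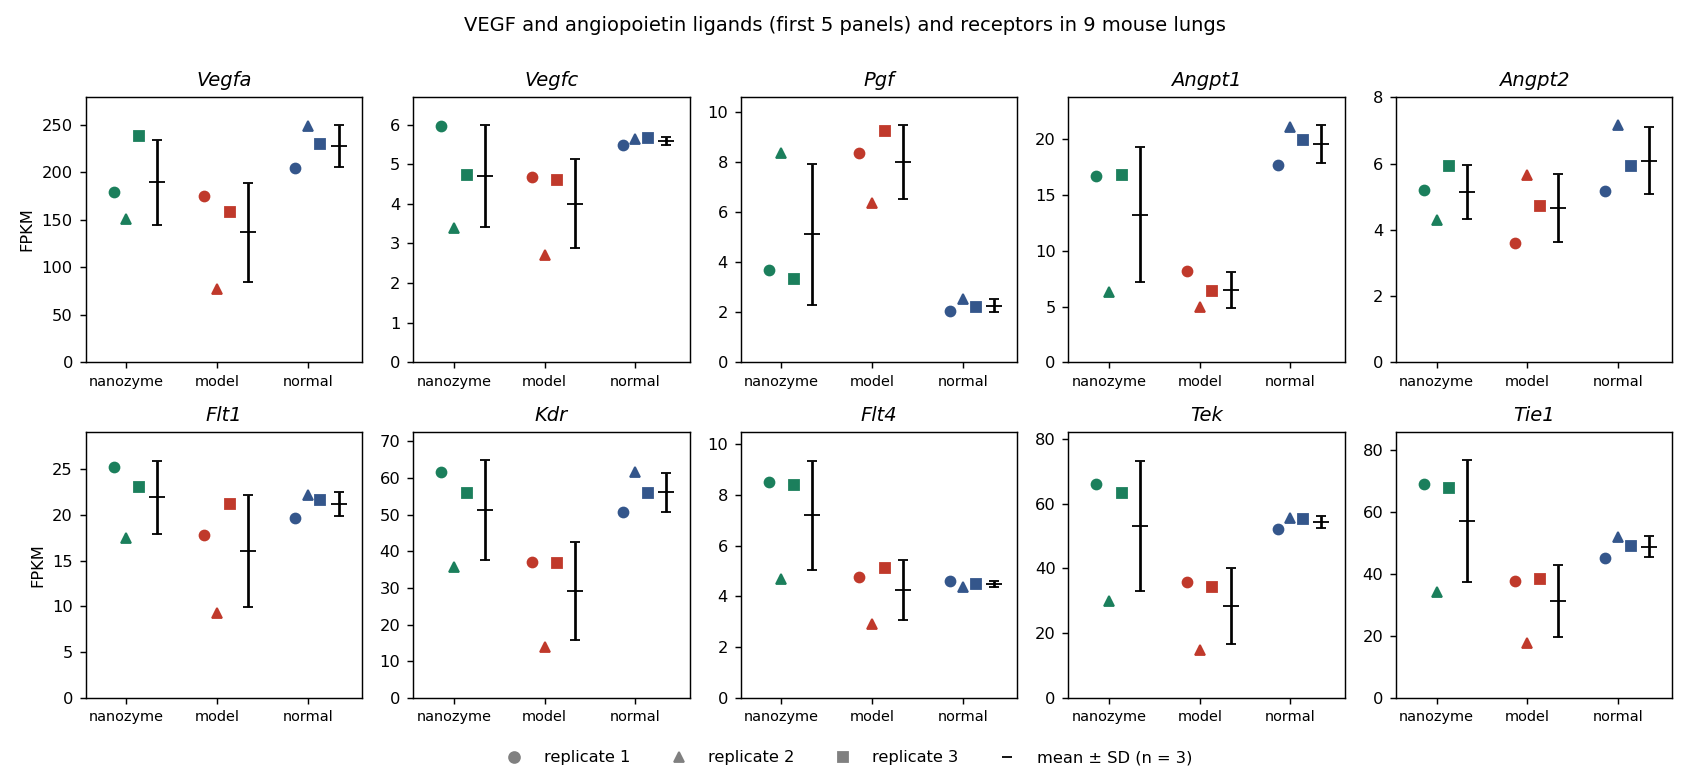
FPKM of each of the 10 genes in every library (points) with the group mean and SD (bars), the groups running from nanozyme through model to normal, on linear axes that start at 0. Pgf lies between 6.39 and 9.27 FPKM in model lungs and between 2.04 and 2.54 FPKM in normal lungs, and Angpt1 shows the opposite order.

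Among the receptors, Kdr, the VEGF receptor with the highest level in this tissue, had 61.7, 35.8 and 55.9 FPKM in nanozyme lungs, 37.2, 13.8 and 36.7 FPKM in model lungs, and 50.7, 61.5 and 56.0 FPKM in normal lungs. All model libraries were below all normal ones, and replicate 2 of the model group was far below its group. Kdr averaged 29.2 ± 13.3 FPKM in model lungs and 56.0 ± 5.41 FPKM in normal lungs, 0.521 times the normal level, and the log2 change of -1.04 ± 0.36 lay just outside the threshold (adjusted p = 0.0502, limma). It was called in 7 of 20 settings, and without replicate 2 of the model group it was -0.58 (adjusted p = 0.078). The gene is at chr5:75932827-75978458 on the minus strand.

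Tek, which encodes TIE2, ranked the libraries of each group in the same order as Kdr. It had 66.2, 29.8 and 63.3 FPKM in nanozyme lungs, 35.8, 14.8 and 34.2 FPKM in model lungs, and 52.0, 55.4 and 55.2 FPKM in normal lungs. Model lungs averaged 28.3 ± 11.7 FPKM and normal lungs 54.2 ± 1.90 FPKM, with a log2 change of -1.01 ± 0.38 (adjusted p = 0.0624, limma). It passed in 6 of 20 settings and was -0.62 (adjusted p = 0.165) without replicate 2 of the model group. Tek lies at chr4:94739289-94874976 on the plus strand.

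Tie1 levels were 68.9, 34.3 and 67.7 FPKM in nanozyme lungs, 37.6, 17.8 and 38.4 FPKM in model lungs, and 45.2, 51.9 and 49.1 FPKM in normal lungs. Nanozyme replicates 1 and 3 were above every other library for this gene, and the model libraries were below every normal one. The log2 change in model against normal lungs was -0.70 ± 0.34 (adjusted p = 0.131, limma), and -0.35 (adjusted p = 0.369) without replicate 2 of the model group. Tie1 (chr4:118471191-118490061, minus strand) and Tek share chromosome 4 but are far apart on it.

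Flt1 and Flt4 differed less between model and normal lungs. Flt1 had 25.2, 17.5 and 23.1 FPKM in nanozyme lungs, 17.8, 9.30 and 21.2 FPKM in model lungs, and 19.7, 22.2 and 21.6 FPKM in normal lungs, with overlapping groups and a log2 change of -0.45 ± 0.27 (adjusted p = 0.21, limma). That change was -0.12 (adjusted p = 0.601) without replicate 2 of the model group. Flt1 (chr5:147561604-147726011, minus strand) also makes a soluble decoy form that binds VEGF-A, and its 6 annotated transcripts, 2 of them protein coding, are not separated by a value per gene. Flt4 had 8.51, 4.69 and 8.38 FPKM in nanozyme lungs, 4.75, 2.91 and 5.11 FPKM in model lungs, and 4.59, 4.35 and 4.48 FPKM in normal lungs. Every nanozyme library was above every normal library for Flt4, and model and normal lungs overlapped (log2 change in model against normal lungs -0.09 ± 0.23, adjusted p = 0.79, limma; 0.11, adjusted p = 0.714, without replicate 2 of the model group). Flt4 lies at chr11:49609263-49652739 on the plus strand.

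The order of mean levels, on the FPKM scale that accounts for transcript length, was alike at its top. In nanozyme lungs Vegfa at 189.5 FPKM was followed by Tie1 at 56.9, Tek at 53.1 and Kdr at 51.1 FPKM, which overlapped each other. In model lungs Tie1 at 31.3, Kdr at 29.2 and Tek at 28.3 FPKM again overlapped below Vegfa. In normal lungs the order was Kdr at 56.0, Tek at 54.2 and Tie1 at 48.8 FPKM, of which Kdr overlapped both others and Tie1 lay below Tek without overlap. The low end held Angpt2, Pgf and Vegfc in nanozyme lungs, and Angpt2, Flt4 and Vegfc in model lungs, none separated from its neighbour. In normal lungs Flt4 and then Pgf came last, each below the gene before it without overlap.

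For model against normal lungs as a whole, 1 of the 10 genes was called higher (Pgf) and 1 lower (Angpt1). Over all 14540 tested genes 17.4% were called higher and 22.7% lower, 40.1% in either direction. The other 8 genes all had changes below 0. Among them Kdr, Vegfa and Tek lay just above the threshold (adjusted p = 0.0502, 0.0616 and 0.0624, limma). The lower called share of the 10 genes therefore depends on where the threshold lies. The median log2 change of the 10 genes was -0.57, beside -0.12 over all tested genes. That median includes replicate 2 of the model group, which was the lowest of all 9 libraries for 8 of the 10 genes. The groups did not overlap for 7 of 10 genes, against 58.5% of all tested genes. An unadjusted p under 0.05 was reached by 5 of the 10 genes and by 50.3% of all genes. Calls near the threshold moved with single libraries. Without replicate 2 of the nanozyme group, which enters the shared estimate of spread, Kdr (adjusted p = 0.0396) and Tek (adjusted p = 0.0258) also passed. Without replicate 1 of the model group Vegfa (adjusted p = 0.037) and Kdr (adjusted p = 0.0393) passed, and without replicate 3 of the model group Kdr did (adjusted p = 0.0463). The background was 18.9% higher and 26.4% lower without that nanozyme library, 15.5% and 22% without replicate 1 and 15% and 17.7% without replicate 3 of the model group. With replicate 2 of the model group left out, the background was 16.3% higher and 17.4% lower, and Pgf at 1.59 (adjusted p = 0.0112) and Angpt1 were the members called.

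In the comparison of nanozyme with model lungs, 0 of the 10 genes were called, and 0 of all 14540 genes (0%). The smallest adjusted p over all genes was 0.126, while 3211 genes, 22.1%, and 5 of the 10 had an unadjusted p under 0.05 in limma. No gene of the 10 separated the groups, against 16.4% of all tested genes. In size, 9 of 10 changes were above 0, with a median of 0.58 beside 0.09 for all genes, and Pgf alone was below 0 at -0.64 ± 0.28 (adjusted p = 0.228). Tek had the highest value at 0.90 ± 0.38 (adjusted p = 0.215), followed by Kdr at 0.87 ± 0.36 (adjusted p = 0.21) and Tie1 at 0.85 ± 0.34 (adjusted p = 0.199). These sizes depended on replicate 2 of the model group: without it Tek was 0.50 (adjusted p = 0.426), Kdr 0.42 (adjusted p = 0.362), Tie1 0.50 (adjusted p = 0.386), Vegfa 0.16 (adjusted p = 0.657), Flt1 0.15 (adjusted p = 0.621) and Vegfc -0.01 (adjusted p = 0.974). Angpt1 was then the highest, at 0.68 (adjusted p = 0.382). Replicate 2 of the nanozyme group lay within the range of the model libraries for all 10 genes, whereas both other nanozyme libraries lay outside that range for 9 of 10.

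Without replicate 2 of the nanozyme group, 4 of the 10 genes were called higher than in model lungs, against 12.5% of all genes, and 1 lower, against 9.64%. Angpt1 had a log2 change of 1.26 (adjusted p = 0.00302), Tek 1.26 (adjusted p = 0.032), Tie1 1.18 (adjusted p = 0.0284) and Flt4 0.87 (adjusted p = 0.0165) in that limma fit. Pgf had -0.99 (adjusted p = 0.00548). Kdr at 1.11 (adjusted p = 0.0762), Vegfa at 0.68 (adjusted p = 0.184) and Flt1 at 0.63 (adjusted p = 0.159) did not pass, nor did Vegfc at 0.36 (adjusted p = 0.237) or Angpt2 at 0.23 (adjusted p = 0.426). These values describe 2 nanozyme libraries against 3 model libraries, and nothing in the labels sets replicate 2 apart.

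Against normal lungs, 0 of 10 genes were called in nanozyme lungs, against 13.9% of all genes (8.39% higher and 5.5% lower). The groups did not overlap for Pgf, Flt4 and Angpt1, 3 of 10, against 42.9% of all genes, and 2 of the 10 reached an unadjusted p under 0.05 (30.6% of all genes, limma). Pgf averaged 5.12 ± 2.81 FPKM in nanozyme lungs and 2.27 ± 0.253 FPKM in normal lungs (log2 change 0.82 ± 0.28, adjusted p = 0.0871), and its change was 0.47 (adjusted p = 0.104) without replicate 2 of the nanozyme group. Angpt1 averaged 13.3 ± 6.03 FPKM in nanozyme lungs and 19.6 ± 1.72 FPKM in normal lungs (log2 change -0.64 ± 0.33, adjusted p = 0.235), and its change without that library was -0.21 (adjusted p = 0.498). Flt4 averaged 7.20 ± 2.17 FPKM in nanozyme lungs and 4.47 ± 0.118 FPKM in normal lungs, with a log2 change of 0.54 ± 0.23 (adjusted p = 0.158). Without replicate 2 of the nanozyme group the Flt4 change was 0.79 and passed (adjusted p = 0.0336), against 9.31% of all genes called higher and 4.26% lower there. The other 7 genes had changes between -0.28 and 0.15 with that library, and between -0.13 and 0.48 without it. The comparison with model lungs shares its nanozyme libraries with this one, and the comparison of model with normal lungs shares its normal libraries.

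**Figure D2:**
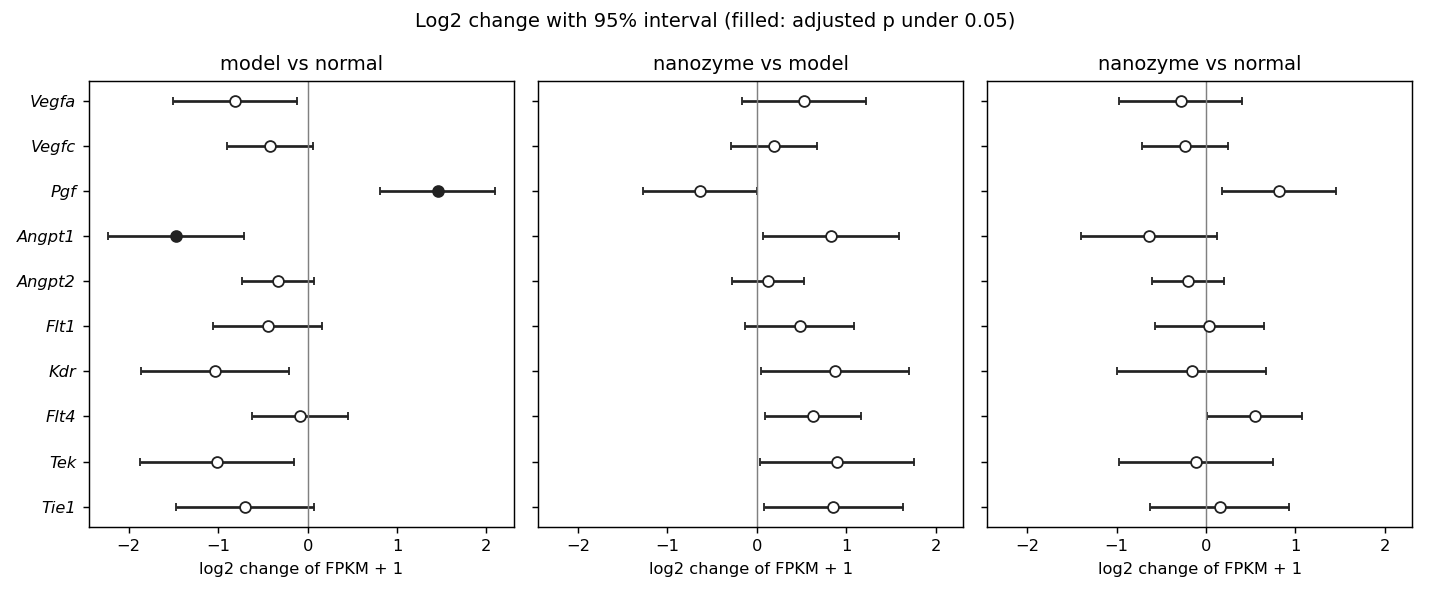
Log2 changes on the log2(FPKM + 1) scale with 95% confidence intervals from limma for each of the 10 genes. From left to right the panels hold model against normal, nanozyme against model and nanozyme against normal lungs. Points are filled where the adjusted p is under 0.05. Pgf at 1.45 and Angpt1 at -1.47, both in model against normal lungs, are the filled points.

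Transcripts used as cell type markers also differed between model and normal lungs. Of 18 tested pan-endothelial markers, which include none of the 10 genes, 6 were called lower and 0 higher in model lungs relative to normal lungs, with a median log2 change of -0.67. Their summed level was 1286 to 2038 FPKM in nanozyme lungs, 709 to 1422 FPKM in model lungs and 1740 to 2062 FPKM in normal lungs. In the same comparison, 8 of 15 capillary markers fell and 0 rose (median -0.85), with Cd36 at -1.28 (adjusted p = 0.00444) and the tip-cell peptide gene Apln at -1.13 (adjusted p = 0.00863). With replicate 2 of the model group left out, 2 pan-endothelial markers (median -0.43) and 5 capillary markers (median -0.62) were lower. Over all tested genes 22.7% were called lower with all libraries, and 17.4% with that library left out. FPKM is divided by library total, so fewer cells of a type, less RNA per cell and more RNA from other cells cannot be told apart here. The part of any of these in the receptor values was not tested.

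Set against the mean log2 level of the pan-endothelial markers in the same library, the receptors differed in direction. Relative Flt1 was -1.65, -1.54 and -1.85 in nanozyme lungs, -1.63, -1.58 and -1.32 in model lungs, and -1.82, -1.86 and -1.78 in normal lungs, a model minus normal difference of 0.31. Relative Flt4 was -3.11, -3.24 and -3.21 in nanozyme lungs, -3.34, -2.97 and -3.18 in model lungs, and -3.70, -3.97 and -3.83 in normal lungs, a difference of 0.67 between model and normal lungs and of 0.65 between nanozyme and normal lungs (0.67 without replicate 2 of the nanozyme group). Both genes thus stood higher against the endothelial markers in every model library than in any normal library. Relative Kdr was -0.39, -0.55 and -0.61 in nanozyme lungs, -0.61, -1.05 and -0.56 in model lungs, and -0.49, -0.43 and -0.45 in normal lungs, and its difference between model and normal lungs was -0.28. For Tek that difference was -0.26, again without overlap. Both were smaller without replicate 2 of the model group, at -0.13 for Kdr and -0.16 for Tek. Tie1 at 0.05 and Angpt2 at 0.42 overlapped between model and normal lungs, and without that library they were at 0.11 and 0.003. In nanozyme against normal lungs relative Tie1 differed by 0.26 without overlap, and by 0.36 without replicate 2 of the nanozyme group. Each difference without overlap has an exact two-sided permutation p = 0.1, the smallest possible with 3 against 3.

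**Figure D3:**
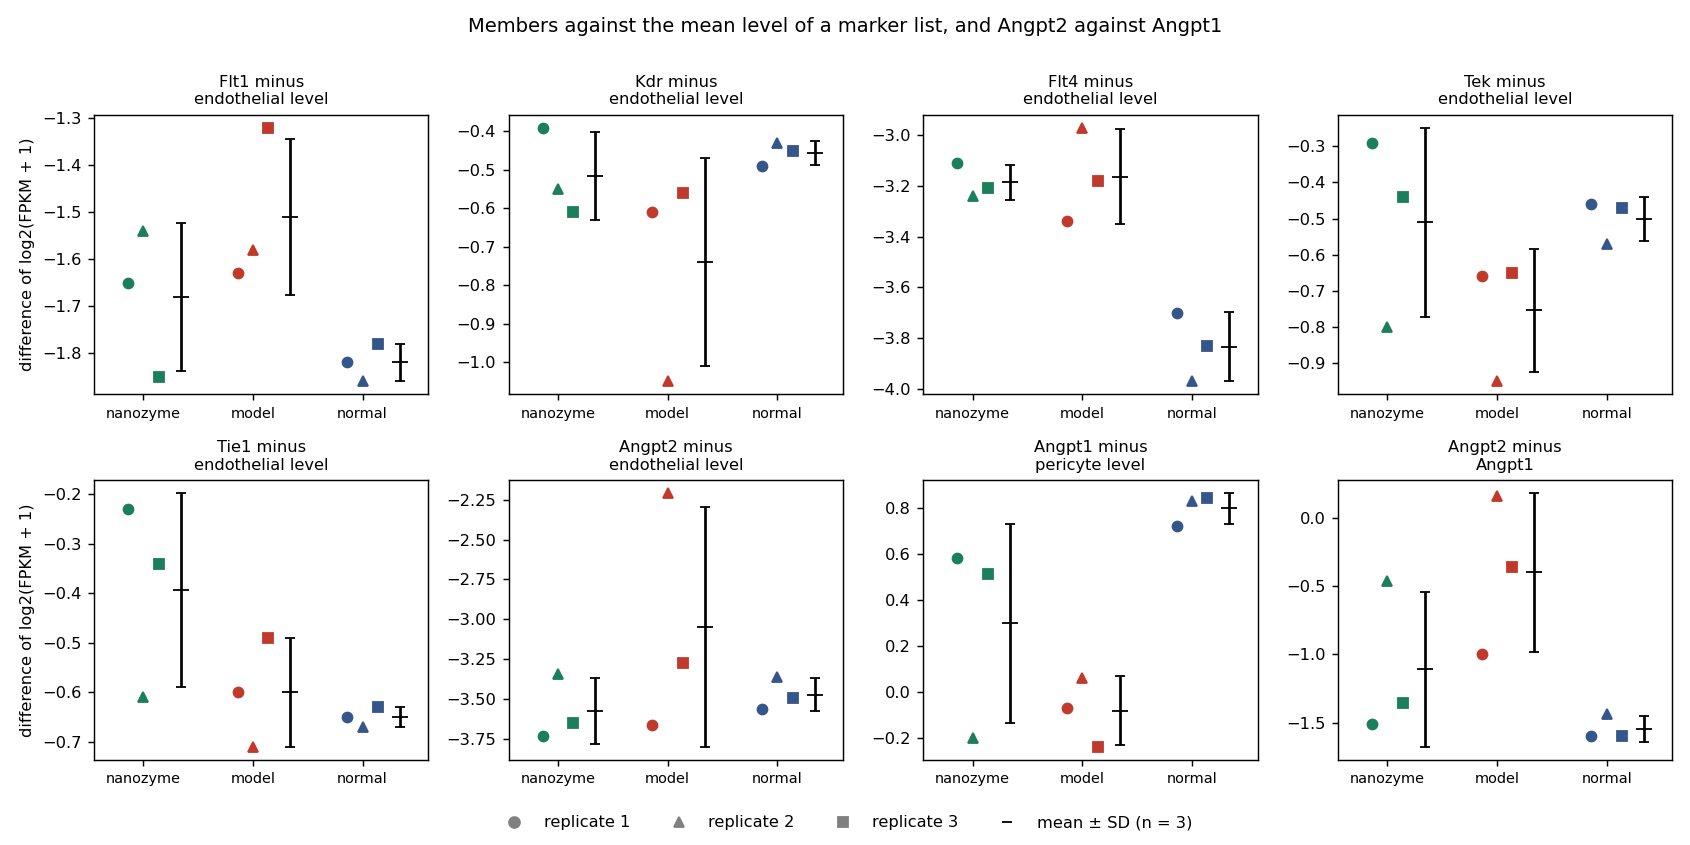
Log2 level of each endothelial gene minus the mean log2 level of the pan-endothelial markers, of Angpt1 minus the mean log2 level of the pericyte markers, and of Angpt2 minus Angpt1, in every library (points) with group means and SD (bars), the groups running from nanozyme through model to normal. The Angpt2 to Angpt1 ratio lies between -1.0 and 0.16 in model lungs and between -1.60 and -1.44 in normal lungs.

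Vegfa and Angpt1 are known mainly from cells outside the endothelium. Of 12 alveolar type 1 markers 1 rose and 6 fell in model lungs relative to normal lungs (median -0.59), with summed levels of 2601 to 4144 FPKM in nanozyme lungs, 1978 to 2521 FPKM in model lungs and 3487 to 4026 FPKM in normal lungs. Relative to the mean of these markers, Vegfa differed by -0.10 between model and normal lungs with overlap (exact permutation p = 1.0), and by 0.16 without replicate 2 of the model group. Between nanozyme and normal lungs relative Vegfa differed by -0.27, without overlap (exact permutation p = 0.1). That difference was -0.36 without replicate 2 and -0.11 without replicate 1 of the nanozyme group. Pericyte markers had 0 higher and 3 of 12 lower in model lungs (median -0.74, or -0.40 with 2 lower without replicate 2 of the model group), and resident fibroblast markers 0 higher and 8 of 14 lower (median -0.90), or 3 lower with replicate 2 of the model group left out. Relative to the pericyte markers Angpt1 was lower in every model library than in any normal library, by -0.88, and relative to the fibroblast markers by -0.36 (exact permutation p = 0.1 for each). Smooth muscle markers had 6 of 8 lower, and their median of -1.51 was the lowest of the vessel wall lists. The summed macrophage and neutrophil markers were 1746 to 4305 FPKM in nanozyme lungs, 3485 to 4568 FPKM in model lungs and 195 to 225 FPKM in normal lungs, and 15 of 16 rose in model lungs. For these counts, the background over all tested genes was 17.4% higher and 22.7% lower in model against normal lungs. These lists were not used to test any cause of the values of the 10 genes.

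Calls among the remaining genes of the pathway went in both directions in model against normal lungs. They did so over all tested genes as well, with 17.4% called higher and 22.7% lower. Among 12 co-receptors and receptor phosphatases 5 rose and 1 fell. Nrp2, the neuropilin co-receptor of VEGF-C, averaged 19.3 ± 4.99 FPKM in model lungs and 6.40 ± 0.0217 FPKM in normal lungs (log2 change 1.43 ± 0.20, adjusted p = 0.00151). Itga5, the fibronectin-binding integrin subunit, rose by 1.86 (adjusted p = 0.00051), and Sdc2, a heparan sulphate proteoglycan, fell by 1.20 on the log2 scale (adjusted p = 0.00335). Of 4 tested further VEGF and angiopoietin ligands and processing genes, 1 fell, Vegfb, at 12.2 ± 1.29 FPKM in model lungs and 18.1 ± 1.58 FPKM in normal lungs (log2 change -0.53 ± 0.15, adjusted p = 0.0238). When replicate 2 of the model group was left out, 2 of these 4 were called higher and 0 lower, so no direction is given for that list.

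Of 26 genes that carry the VEGF receptor signal inside the cell, 6 rose and 4 fell, against 17.4% and 22.7% of all tested genes. The adaptor gene Sh2d2a, a partner of VEGFR2 also made by T cells, averaged 3.83 ± 0.894 FPKM in model lungs and 0.637 ± 0.0963 FPKM in normal lungs (log2 change 1.55 ± 0.16, adjusted p = 0.000446). Mapkapk2, the kinase below p38, rose by 1.19 (adjusted p = 0.004), and Prkcb, a protein kinase C that leukocytes also make, rose by 1.02 (adjusted p = 0.00788). Among 13 genes of TIE2 signalling and of FOXO1, the transcription factor that angiopoietin 1 restrains, 1 rose and 7 fell (median -0.52). The gene that rose was Dok2, an adaptor of TIE2 that is also a blood cell adaptor, at 21.5 ± 0.438 FPKM in model lungs and 4.13 ± 0.900 FPKM in normal lungs (log2 change 2.15 ± 0.17, adjusted p = 0.00018). Esm1, an endothelial proteoglycan induced by VEGF-A, averaged 1.02 ± 0.607 FPKM in model lungs and 7.01 ± 1.60 FPKM in normal lungs (log2 change -2.01 ± 0.34, adjusted p = 0.00296). Grb7, another TIE2 adaptor, had a change of -1.41 (adjusted p = 0.00158). With replicate 2 of the model group left out, 1 of these 13 genes rose and 5 fell (median -0.42).

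Esm1 also belongs to the 16 tip cell and Notch genes, of which 2 rose and 9 fell (median -0.87). Without replicate 2 of the model group 2 rose and 6 fell (median -0.7). The background over all tested genes was 17.4% higher and 22.7% lower, or 16.3% and 17.4% without that library. Cxcr4, a chemokine receptor of tip cells and of leukocytes, rose by 0.70 (adjusted p = 0.00262), and the Notch ligand gene Jag1 had a change of -0.90 (adjusted p = 0.00306). Of 8 tested hypoxia sensing genes 1 rose and 3 fell: Hif1a, which encodes the oxygen-regulated transcription factor subunit that drives Vegfa, averaged 46.7 ± 8.93 FPKM in model lungs and 16.4 ± 0.410 FPKM in normal lungs (log2 change 1.44 ± 0.23, adjusted p = 0.00262). Hif1an and Egln1, whose products are oxygen sensors that restrain that factor, had changes of -0.63 (adjusted p = 0.00842) and -0.54 (adjusted p = 0.0148). Among 18 HIF target genes other than Vegfa, 6 rose and 1 fell (median 0.24), and Vegfa itself was not called. Hk2, hexokinase 2, rose by 1.84 (adjusted p = 0.00245) and Pfkfb3, a glycolytic regulator, by 1.85 (adjusted p = 0.00366). The summed level of these HIF targets was 511 to 696 FPKM in nanozyme lungs, 645 to 1014 FPKM in model lungs and 497 to 528 FPKM in normal lungs, highest in replicate 2 of the model group, in which Vegfa was lowest.

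Of 16 inhibitors of angiogenesis, 3 rose and 3 fell, against 17.4% and 22.7% of all tested genes. Cxcl10, an interferon-induced chemokine that also inhibits vessel growth, averaged 535 ± 138 FPKM in model lungs and 2.40 ± 0.324 FPKM in normal lungs (log2 change 7.27 ± 1.08, adjusted p = 0.00195). Serpinf1, which encodes pigment epithelium-derived factor, had a change of -1.51 (adjusted p = 0.00196). Among 17 tested other angiogenic factors and receptors, 1 rose and 6 fell (median -0.68), with Fgf1 at -1.67 (adjusted p = 0.00832), Efnb2, the arterial ephrin, at -1.63 (adjusted p = 0.00561) and Pdgfa at -1.09 (adjusted p = 0.00923). Without replicate 2 of the model group 2 of them rose and 4 fell (median -0.36). No gene of any of these lists was called between nanozyme and model lungs. Without replicate 2 of the nanozyme group, 7 of the 18 pan-endothelial markers and 6 of the 15 capillary markers were called higher than in model lungs. In that fit 13 of the 16 macrophage and neutrophil markers were called lower. Over all tested genes 12.5% were called higher and 9.64% lower there.

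**Figure D4:**
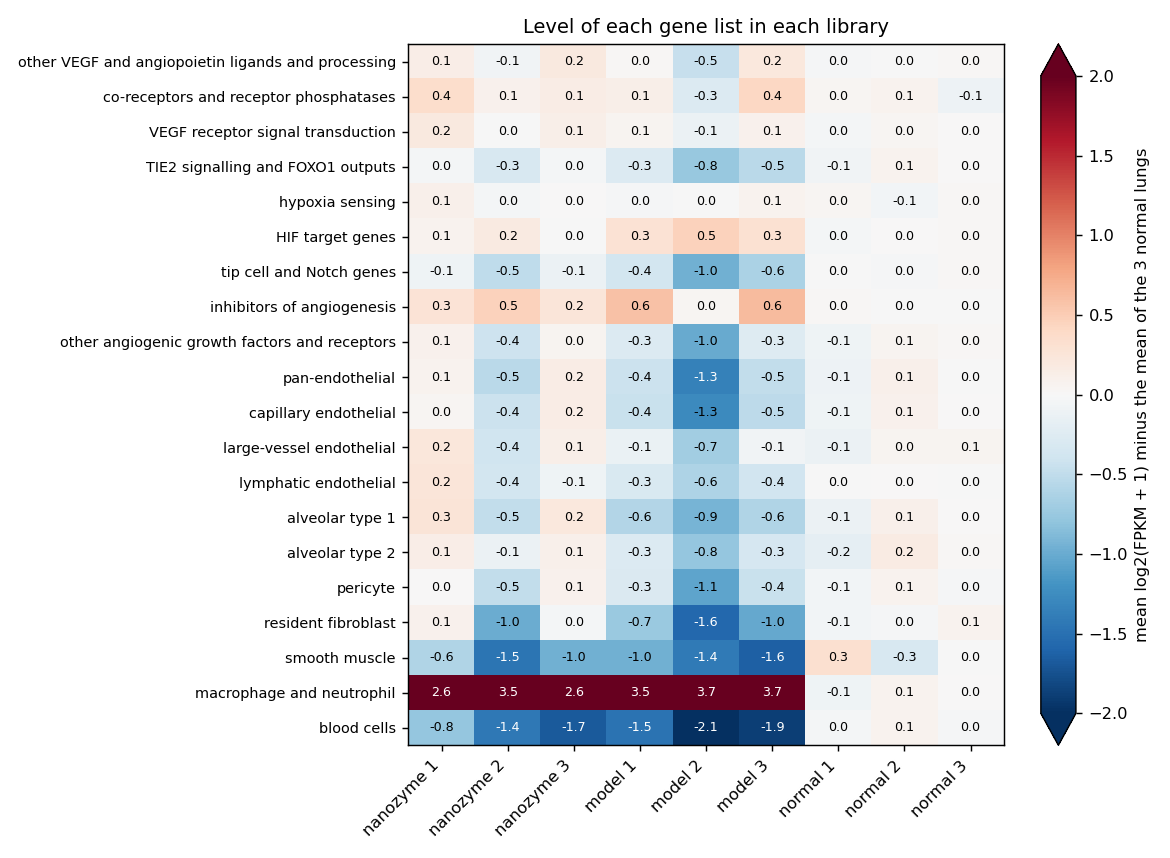
Mean log2(FPKM + 1) of each gene list in every library minus the list's mean over the normal libraries, for the pathway and cell type lists, with columns running from nanozyme through model to normal and colours that saturate at 2 either way. Replicate 2 of the nanozyme group resembles the model columns, with macrophage and neutrophil markers at a summed 4305 FPKM there and 1746 and 1934 FPKM in the other nanozyme libraries.

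The genes with the most similar profile over the 9 libraries were found by the root-mean-square difference of their centred log2 levels, as a description. A direction of change shared with the member follows from how these genes were picked. For Kdr they were Npr1 at 0.075, then Tspan18 and Cobll1, and for Tek they were Tmem44 at 0.069, then Unc45b and Bmp4. Flt1 was nearest to Adgre5 at 0.062 and Pecam1 at 0.072, Pecam1 being a pan-endothelial marker. Tie1 was nearest to Chst7 at 0.077 and next to Cav1, the caveolin of endothelium and alveolar type 1 cells. Vegfa lay nearest to Zfp641 at 0.059. Pgf lay nearest to Parp3 at 0.109, Mov10 and Cd44, all 3 higher in model than in normal lungs. Angpt1 lay nearest to Ogn at 0.115 and Cat, which were both lower in model lungs, at 60.3 FPKM for Ogn and 55.1 FPKM for Cat, against 171.5 and 136 FPKM in normal lungs.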

How the data were processed

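RNA was extracted from homogenised lung and libraries were made from poly(A)-selected RNA, per the labels' protocols. The submitters' processing notes name HISAT2 and the GRCm38 build; the counting tool, its strand setting and the annotation are not given in the sources used here. The authors deposited FPKM values per gene, without counts, so depth per library is unknown. Of 25526 gene names, 21437 matched GENCODE vM21 symbols, from which coordinates were taken.

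Genes with at least 1 FPKM in at least 3 of 9 libraries (14540) were tested with limma 3.58.1 (R 4.3.3) on log2(FPKM + 1), all 9 libraries in 1 fit with an intensity trend, two-sided, with Benjamini-Hochberg adjustment at 0.05. The test was checked on simulated data with independent noise for each gene and library. Such data hold no library that deviates across many genes, so the check does not cover that case. A pseudocount of 1 understates changes of low genes. Within-library differences were compared by exact permutation tests (scipy 1.17.1). The limma p-values rest on 1 spread per gene, pooled over the 3 groups of 3 mice and adjusted by the trend over all genes. Those of the permutation tests rest on the libraries of the groups compared.

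The genes and lists were chosen with earlier results of these data known. Named genes are the 10 members, up to 3 genes per list with the smallest p in model against normal lungs (plus 2 of highest mean level where fewer than 2 were called), and the 3 nearest profiles per member, of which the text gives a selection. The comparisons of Vegfa with alveolar type 1 markers and of Angpt1 with pericyte and fibroblast markers were added after seeing the data. Alternatives covered the pseudocount, filter, scaling, spread, sample weights, replicate block and each library left out.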

Additional observations from a re-analysis of the deposited data

How the results depend on the processing

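The calls of Pgf and Angpt1 in model against normal lungs held under every alternative run. The count of the 10 genes called there was 2, and 5 with quantile normalization, 5 when rescaled without the 100 most abundant genes, 7 with sample weights, and 2 to 4 when single libraries were left out. Over all genes that count was 5824 (40.1% of those tested). It lay between 3836, without replicate 3 of the normal group, and 6590 with libraries left out. It also rose slightly above 5824 with quantile normalization, further when rescaled, and past 6590 with sample weights. The higher counts of the 10 genes in these settings therefore came with higher counts over all genes. For nanozyme against model lungs, 4 genes passed with no filter, and with sample weights 5 of the 10 and 3034 of all genes, with ranges of 0 to 5 and 0 to 3216 with libraries left out. For nanozyme against normal lungs, 1285 genes passed at a mean FPKM of at least 5, 2 of the 10 and 5745 of all genes with sample weights, and 0 to 1 and 748 to 2258 with libraries left out, lowest without replicate 3 (748) or 1 (795) of the normal group. The convergence tolerance of the sample weights was not reached. The median log2 change of all genes in model against normal lungs was -0.121, 0.006 with median-of-ratios scaling and -0.232 when rescaled without the 100 most abundant genes. Signs turned for values near 0. In model against normal lungs Flt4 was 0.031 with median-of-ratios scaling, 0.028 with sample weights and -0.208 to 0.114 with single libraries left out, and relative Vegfa was -0.26 to 0.157 with libraries left out. In nanozyme against normal lungs Flt1 was -0.056 when rescaled without the 100 most abundant genes, and Tek was 0.151 with sample weights. With single libraries left out, Flt1 there lay between -0.069 and 0.184, Tie1 between -0.014 and 0.48, Kdr between -0.314 and 0.071, Tek between -0.311 and 0.252 and relative Tek between -0.121 and 0.136. In nanozyme against model lungs, leaving out single libraries gave -0.017 to 0.248 for Angpt2, -0.013 to 0.364 for Vegfc, -0.11 to 0.074 for relative Flt4 and -0.036 to 0.129 for Angpt1 relative to fibroblast markers, while relative Flt4 was 0.066 with a pseudocount of 0.1. The cause was not tested. Of the other alternatives for the 10 genes, 551 kept direction and side of the threshold and 32 newly passed it.

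Replicate numbers are shared across groups, but same-numbered libraries did not deviate together: the correlation exceeded 0.1 in 2 of 9 pairs (-0.331 to 0.227), and the best match had its own number in 4 of 18 cases. With the replicate block 4 of the 10 genes were called in model against normal lungs, Kdr (adjusted p = 0.0366, limma) and Tek (adjusted p = 0.0268) in addition. The share of all tested genes called with the block was slightly below the 40.1% called without it. The 4 of 10 was therefore close to that background.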

Other observations

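Markers of other vessel types also differed between model and normal lungs, beside the 10 genes described. Of 11 tested large-vessel endothelial markers 3 rose and 4 fell in model lungs, or 3 and 2 without replicate 2 of the model group. Over all tested genes 17.4% were called higher and 22.7% lower, or 16.3% and 17.4% without that library. Selp, the adhesion molecule P-selectin of activated veins and platelets, averaged 3.70 ± 1.53 FPKM in nanozyme lungs, 7.57 ± 2.20 FPKM in model lungs and 0.866 ± 0.157 FPKM in normal lungs (SD, n = 3 each), with a log2 change of 2.17 ± 0.27 in model against normal lungs (adjusted p = 0.000966, limma). Vcam1, another leukocyte adhesion gene, rose by 1.13 there (adjusted p = 0.00341). Hey1, an arterial Notch target, averaged 17.4 ± 9.12 FPKM in nanozyme lungs, 6.64 ± 2.12 FPKM in model lungs and 26.6 ± 1.42 FPKM in normal lungs, and had a change of -1.89 ± 0.36 in model against normal lungs (adjusted p = 0.00475). Of 5 tested lymphatic endothelial markers, the cells in which the Vegfc receptor Flt4 is best known, 0 rose and 1 fell. That gene was Fxyd6 at -0.64 (adjusted p = 0.0445), and with replicate 2 of the model group left out 0 were called. Lyve1 averaged 75.4 ± 17.7 FPKM in nanozyme lungs, 47.0 ± 13.5 FPKM in model lungs and 55.2 ± 2.33 FPKM in normal lungs, and its change of -0.27 in model against normal lungs was not called (adjusted p = 0.383). The summed level of the lymphatic markers was 130 to 198 FPKM in nanozyme lungs, 86.5 to 122 FPKM in model lungs and 129 to 146 FPKM in normal lungs.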
